A study of Mus musculus with 9 samples.

Results

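Neuronal growth and cytoskeleton genes were described in αTC1 cells, a mouse line of glucagon-producing islet cells, after 7 days with the EZH2 inhibitor EPZ011989. The group holds 10 genes chosen by symbol, which are Gap43, Stmn1, Stmn2, Stmn3, Stmn4, Rtn1, Tubb3, Nefl, Nefm and Dcx. Each symbol named 1 of the 33212 rows of the count table, and 10 of 10 were among the 14754 genes that passed a filter on low counts. The members were picked with the difference between the treatment groups already known. Their levels, fold changes and calls are therefore descriptions and support nothing further. A called gene is one with an adjusted p under 0.05 in a single edgeR fit across all tested genes.

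The series compares 4 libraries of cells given 4 µM EPZ011989 for 7 days with 5 libraries of cells given DMSO, the solvent, for the same 7 days. Both groups were the same line grown in low-glucose medium with serum, and messenger RNA was captured by its poly-A tail. The line comes from a tumour of mice that carried a viral oncogene under a glucagon gene promoter, so these are dividing tumour cells and 1 line. Libraries are labelled as biological replicates without saying whether they were separate cultures, so the spread between them may be technical. Totals lay between 60274140 and 74651782 counts. Among alpha cell markers, 10 of 10 were measured, with summed levels of 24240 to 26610 CPM (counts scaled to a common library size) in DMSO and 20010 to 27190 CPM with EPZ011989. Ezh2 was at 199 ± 5 CPM (SD, n = 5) and 209 ± 7 CPM (n = 4) and was not called.

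Neurons extend axons by building microtubules, filling the shaft with neurofilaments and adding membrane at the growth cone. Tubulin subunits polymerise into microtubules, stathmins bind free tubulin and destabilise microtubule ends, and doublecortin binds and stabilises them. Islet endocrine cells share many genes with neurons, and both cell types are known to lack REST, a repressor of neuronal genes. EZH2 places the repressive mark H3K27me3, mostly at CpG-rich promoters of silent developmental genes.

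RefSeq promoter windows on GRCm38.p6, which reach from 250 bases before to 50 bases after a start, were matched for 4 of the 10 members. They are printed because their density of CG dinucleotides, the feature linked to EZH2 targeting in the background above, differs between starts. The bases before the start are given 5′ to 3′ on the gene's strand, cut where an annotated exon begins, with each CG in capitals. The first is the outer start of Rtn1 (chr12:72409055-72409304, minus strand), the second 1 of 2 inner starts of Rtn1 (chr12:72236728-72236977, minus strand), then Tubb3 (chr8:123411303-123411423, plus strand), Stmn3 (chr2:181314501-181314750, minus strand) and Dcx (chrX:143933312-143933469, minus strand).
Rtn1 outer start: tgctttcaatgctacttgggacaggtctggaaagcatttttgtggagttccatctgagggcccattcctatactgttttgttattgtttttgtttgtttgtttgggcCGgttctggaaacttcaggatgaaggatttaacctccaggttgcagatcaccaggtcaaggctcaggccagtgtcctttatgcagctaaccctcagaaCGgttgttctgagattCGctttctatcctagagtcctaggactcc
Rtn1 inner start: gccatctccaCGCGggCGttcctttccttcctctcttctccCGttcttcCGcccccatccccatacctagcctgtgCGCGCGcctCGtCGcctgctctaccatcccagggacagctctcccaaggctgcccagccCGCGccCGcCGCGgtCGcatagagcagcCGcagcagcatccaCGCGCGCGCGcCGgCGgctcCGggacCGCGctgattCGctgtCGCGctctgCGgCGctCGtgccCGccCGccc
Tubb3: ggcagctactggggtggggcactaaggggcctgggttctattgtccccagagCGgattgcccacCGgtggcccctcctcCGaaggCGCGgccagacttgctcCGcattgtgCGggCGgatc
Stmn3: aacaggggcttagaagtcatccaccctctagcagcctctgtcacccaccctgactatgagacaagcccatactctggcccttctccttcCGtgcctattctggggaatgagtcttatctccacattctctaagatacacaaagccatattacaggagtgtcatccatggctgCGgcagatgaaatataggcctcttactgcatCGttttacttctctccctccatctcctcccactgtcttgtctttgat
Dcx: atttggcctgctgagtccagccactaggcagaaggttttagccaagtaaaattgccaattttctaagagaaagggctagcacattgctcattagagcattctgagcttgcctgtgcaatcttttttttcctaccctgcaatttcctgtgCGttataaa

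The printed inner start of Rtn1 had 43 CG dinucleotides in its 300-base window, an observed-to-expected CpG ratio of 1.13. That value lay at the 98.7th percentile of 32851 windows, whose median was 0.384. A second inner start of Rtn1 (window 72235697 to 72235996), which lies within an annotated exon and is not printed, had 8 CG and a ratio of 0.519. The outer start of Rtn1 had 3 CG and a ratio of 0.187. Tubb3 stood at 0.765, Stmn3 at 0.348 and the outer of 2 Dcx starts at 0.219. A ratio of at least 0.6 was found in 35.8% of all windows. The counts are per gene, so they do not tell which start of Rtn1 was in use. The left part of the REST site RE1, TTCAGCACC, was searched on both strands and lay in 0 of the 7 member windows and in 0.37% of all windows. The right part, GGACAG, lay in 1 window each of Tubb3, the outer start and the printed inner start of Rtn1, and in 22.18% of all windows. Rest itself had 4 counts in DMSO replicate 3 and 0 in the other libraries, under the floor of 12 counts per library.

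Of the 10 members, 3 were called higher with EPZ011989 (Gap43, Rtn1 and Stmn2), where 16.2% of all tested genes were called higher. The 2 called lower were Dcx and Nefm, beside 7.96% of all tested genes. Stmn1, Stmn3, Stmn4, Tubb3 and Nefl were not called. Groups did not overlap for those 3 higher members, against 16.1% of all tested genes, and for those 2 lower members, against 8.77%. The median log2 fold change of the 10 was 0.22, and that of all tested genes 0.03. Nothing is read from these counts, because the contrast was used in choosing the members.

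**Figure D1:**
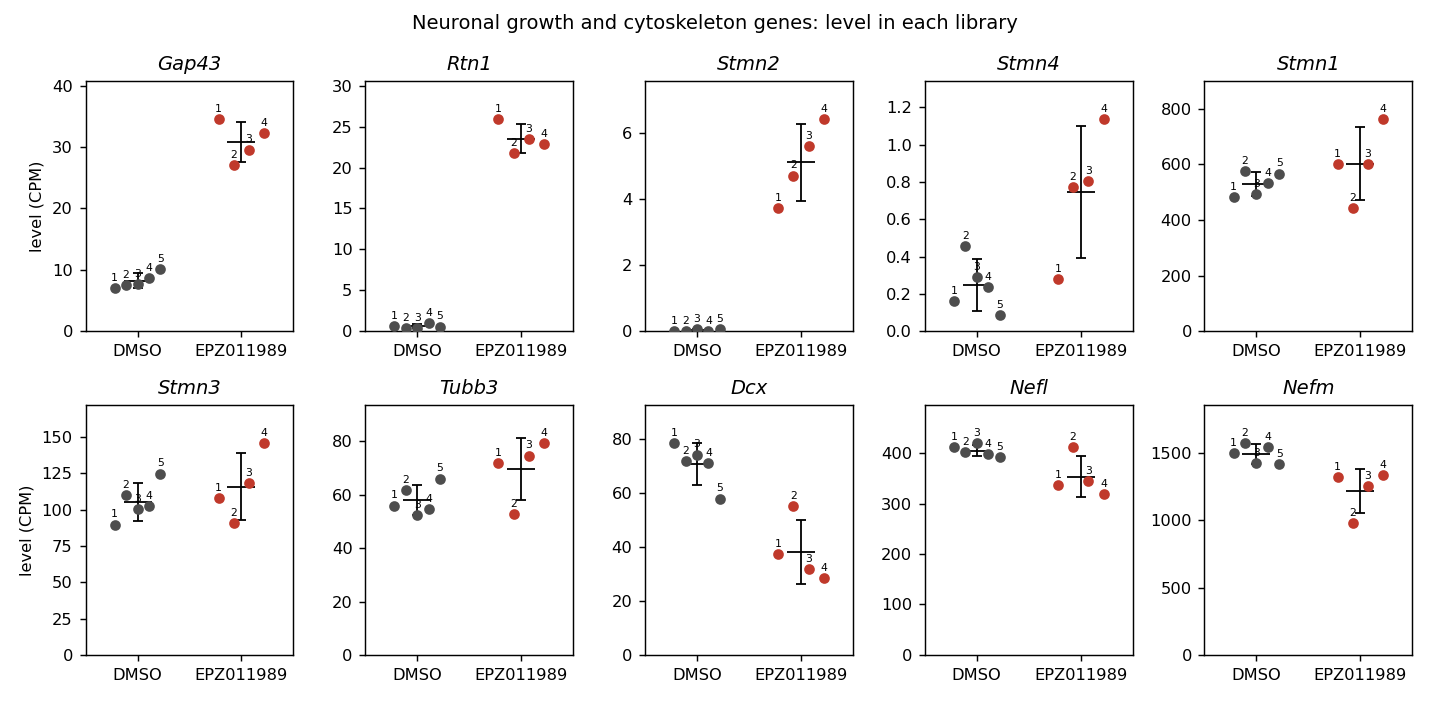
Level of each of the 10 genes in CPM (y axes from 0, different in each panel) in the 5 DMSO and 4 EPZ011989 libraries. Points are libraries with their replicate number, and the bar and whiskers are the mean and SD (the lower whisker stops at 0). Gap43, Rtn1 and Stmn2 separate upward, Dcx and Nefm separate downward, and the other 5 overlap.

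Gap43 encodes a phosphoprotein on the inner face of growth cone membranes that binds calmodulin. In DMSO it was at 7.02, 7.47, 7.71, 8.61 and 10.1 CPM in replicates 1 to 5, and with EPZ011989 at 34.5, 27.1, 29.6 and 32.3 CPM in replicates 1 to 4. The lowest EPZ011989 library lay far above the highest DMSO library. Gap43 (chromosome 16, 42248442 to 42340651, GRCm38, minus strand) thus went from 8.19 ± 1.23 CPM (SD, n = 5) to 30.9 ± 3.2 CPM (n = 4). The ratio of means was 3.77 and the log2 fold change 1.91 ± 0.12 (SE).

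Rtn1 encodes reticulon 1, a membrane protein that curves tubules of the endoplasmic reticulum in neurons and endocrine cells. It was at 0.650, 0.383, 0.360, 0.962 and 0.572 CPM in the DMSO libraries. With EPZ011989 it reached 25.9, 21.7, 23.5 and 22.9 CPM. The EPZ011989 values were the tightest of any member, with a coefficient of variation of 7.52%. Rtn1 (chromosome 12, 72211752 to 72409054, minus strand) had the second largest log2 fold change of the 10, 5.34 ± 0.24 (SE). Its 197 DMSO counts would be about 49 fragments if 4 counts are 1 fragment, an assumption that widens the interval. The ratio of total levels was 41.0 (95% exact interval 31.0 to 56.0, for counting error only).

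Stathmins differ in where they act. Stmn1 is cytosolic and common in dividing cells, while Stmn2, Stmn3 and Stmn4 carry a membrane anchor and are known from neurons. Stmn2 (chromosome 3, 8509360 to 8561606, plus strand), a growth cone stathmin, had 4 counts in DMSO replicates 3 and 5 and 0 in the other 3 DMSO libraries. It had 281, 335, 425 and 458 counts in EPZ011989 replicates 1 to 4, or 3.72, 4.71, 5.61 and 6.43 CPM. Every EPZ011989 library was thus above the floor and every DMSO library below it, so Stmn2 passed the filter only through the group where it is high. On the same assumption of 4 counts per fragment, 2 fragments in DMSO stood against 375, and the ratio was 219, with a 95% exact interval of 60.3 to 1820. The fitted log2 fold change of 7.68 ± 0.54 (SE) depends on the prior count at so low a DMSO level.

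Stmn4 (chromosome 14, 66344296 to 66361680, plus strand) was low in both groups. It stood at 0.162, 0.457, 0.291, 0.236 and 0.0857 CPM in DMSO and at 0.278, 0.774, 0.805 and 1.14 CPM with EPZ011989. EPZ011989 replicate 1 lay inside the DMSO range and the other 3 above it. The log2 fold change was 1.60 ± 0.54 (SE) and was not called, but it was called without EPZ011989 replicate 1 (1.84) or DMSO replicate 2 (1.94). It was also called with DESeq2, upper-quartile factors or library size alone, and in 6 of 18 alternative fits in all. Counts were 6 to 31 per DMSO library, so single fragments weigh on these values.

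Stmn1 (chromosome 4, 134468320 to 134473843, plus strand) had the highest mean level per kb of exon of the members. Its libraries ran from 482 to 575 CPM in DMSO, with values of 482, 575, 492, 533 and 567 CPM. With EPZ011989 they were at 602, 442, 601 and 762 CPM. Replicate 2 was under every DMSO library and the other 3 over every one. Stmn1 was not called at 0.18 ± 0.13 (SE, log2), but was called higher without EPZ011989 replicate 2 (0.30). Of its distinct words of 50 bases, 17.9% also occur in transcripts of Gm11223, so some reads may not tell the 2 apart.

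Stmn3 (chromosome 2, 181306459 to 181314500, minus strand) had 89.7, 110, 100.3, 103 and 125 CPM in DMSO. It had 108, 91.0, 118 and 146 CPM with EPZ011989, a range that covers most of the DMSO range. The log2 fold change was 0.14 ± 0.13 (SE), and it went to -0.01 without EPZ011989 replicate 4. Within the stathmin family, levels per kb of exon (CPM divided by exon length) summed to 330 to 405 in DMSO and 311 to 527 with EPZ011989. Stmn1 made up 74.8 ± 1.3% of that sum in DMSO and 75.1 ± 1.1% with EPZ011989, and Stmn3 25.1 ± 1.3% and 24.6 ± 1.0%. Stmn2 went from 0.00108 ± 0.00148% to 0.223 ± 0.046% of the sum, so the family stayed mostly Stmn1 and Stmn3 in both groups.

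Tubb3, the class III beta-tubulin used as a marker of neurons, was already expressed in DMSO cells. Its levels (chromosome 8, 123411424 to 123422015, plus strand) were 56.0, 61.9, 52.4, 54.7 and 66.1 CPM in DMSO and 71.8, 52.8, 74.7 and 79.5 CPM with EPZ011989. EPZ011989 replicate 2 sat within the DMSO range, and the other 3 above it. The log2 fold change of 0.26 ± 0.12 (SE) was not called with all 9 libraries. Without EPZ011989 replicate 2 it was 0.37 and called higher.

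Dcx encodes doublecortin, a microtubule-binding protein of migrating young neurons, and it moved opposite to Gap43. It was at 78.4, 71.6, 74.1, 70.9 and 57.8 CPM in DMSO and at 37.3, 55.0, 31.8 and 28.5 CPM with EPZ011989. The groups were separate, but EPZ011989 replicate 2 came close to the lowest DMSO library. Dcx (chromosome X, 143855842 to 143933311, minus strand) fell from 70.6 ± 7.7 CPM (SD, n = 5) to 38.1 ± 11.8 CPM (n = 4), a log2 fold change of -0.89 ± 0.18 (SE). It was called lower in all 20 alternative fits, with values between -1.13 and -0.80. The ratio of Dcx to Gap43 levels in CPM was 5.71 to 11.2 in DMSO libraries and 0.882 to 2.03 in EPZ011989 libraries.

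The neurofilament genes Nefl and Nefm, whose light and medium chains form the filaments of axons, were abundant in both groups. Nefm was at 1502, 1576, 1423, 1547 and 1419 CPM in DMSO and at 1319, 982, 1252 and 1334 CPM with EPZ011989. Nefl was at 411, 403, 420.3, 398 and 393 CPM in DMSO and at 337, 412, 345 and 319.5 CPM with EPZ011989. In EPZ011989 replicate 2 Nefm was lowest and Nefl highest of the 4, and its Nefm to Nefl ratio was 2.39 while the other 3 stood at 3.63 to 4.17 and DMSO at 3.39 to 3.91.

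Nefm was called lower at -0.29 ± 0.10 (SE, log2) and Nefl was not at -0.20 ± 0.08. The Nefm call rests on the setting, since only 6 of 20 alternative fits made it. It was lost when any of DMSO replicates 1 to 5 (-0.31, -0.27, -0.32, -0.29 and -0.33) or EPZ011989 replicate 1 (-0.35) or 3 (-0.30) was left out. Nefl was called lower in 3 of 20 alternative fits, among them without EPZ011989 replicate 2 (-0.29) and with DESeq2 (-0.21). Nefm (chromosome 14, 68082590 to 68124846, minus strand) spans Nefl (68083863 to 68089095, plus strand) in GENCODE M21. The 2 share 1108 exon bases on opposite strands, which is 32.8% of Nefl and 19.2% of Nefm, and no source used here says if reads were counted by strand. The split between them is therefore uncertain. Their sum was 1811 to 1978 CPM in DMSO and 1394 to 1657 CPM with EPZ011989, with no overlap. The heavy chain gene Nefh had counts in 2 of 9 libraries only, and Ina, a further neuronal filament gene, was at 158 ± 3 and 142 ± 11 CPM.

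**Figure D2:**
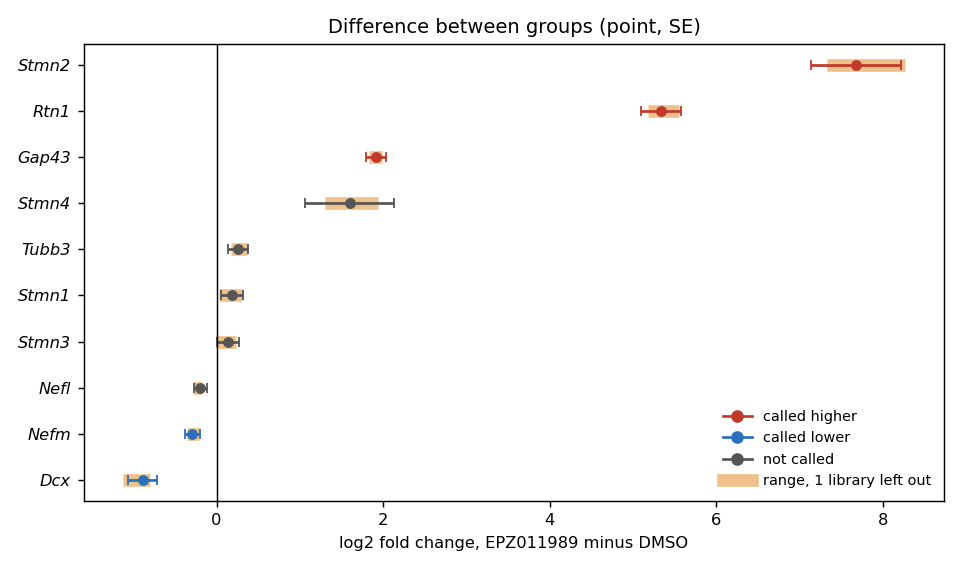
Log2 fold change of each gene, EPZ011989 minus DMSO (x axis), with its SE as whiskers and, as a broad band, the range when each of the 9 libraries was left out. Stmn2, Rtn1 and Gap43 stand at 1.91 or more, Stmn4 has the widest interval of the genes not called, and Dcx is lowest at -0.89.

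Levels can be ordered between genes only per length. In DMSO the order per kb of exon was Stmn1 at 276 ± 22 CPM per kb, Nefm at 258 ± 12, Nefl at 119.8 ± 3.3, Stmn3 at 92.9 ± 11.5, Tubb3 at 31.2 ± 3.0, Dcx at 5.58 ± 0.61 and Gap43 at 5.38 ± 0.81. Stmn4 at 0.129 ± 0.073, Rtn1 at 0.117 ± 0.049 and Stmn2 at 0.00402 ± 0.00550 followed far below. Neighbours with overlapping libraries in DMSO were Stmn1 and Nefm, Dcx and Gap43, and Stmn4 and Rtn1. With EPZ011989 Gap43 stood at 20.3 ± 2.1 and Rtn1 at 4.72 ± 0.35 CPM per kb, both now above Dcx at 3.02 ± 0.94. Stmn2 at 0.914 ± 0.208 was above Stmn4 at 0.391 ± 0.185. Among 14577 tested genes with a gene model, Rtn1 moved from the 11th to the 47.6th percentile of level per kb and Gap43 from the 51.2nd to the 81.1st. Stmn2 reached only the 23.5th percentile, while Stmn1 and Nefm were near the 99th in both groups. The rise of Gap43, Rtn1 and Stmn2 together took their summed level from 7.67 to 10.8 CPM in DMSO libraries to 53.5 to 64.2 CPM. A lower level in bulk RNA cannot tell fewer expressing cells from less RNA per cell, and the same holds for a higher one.

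**Figure D3:**
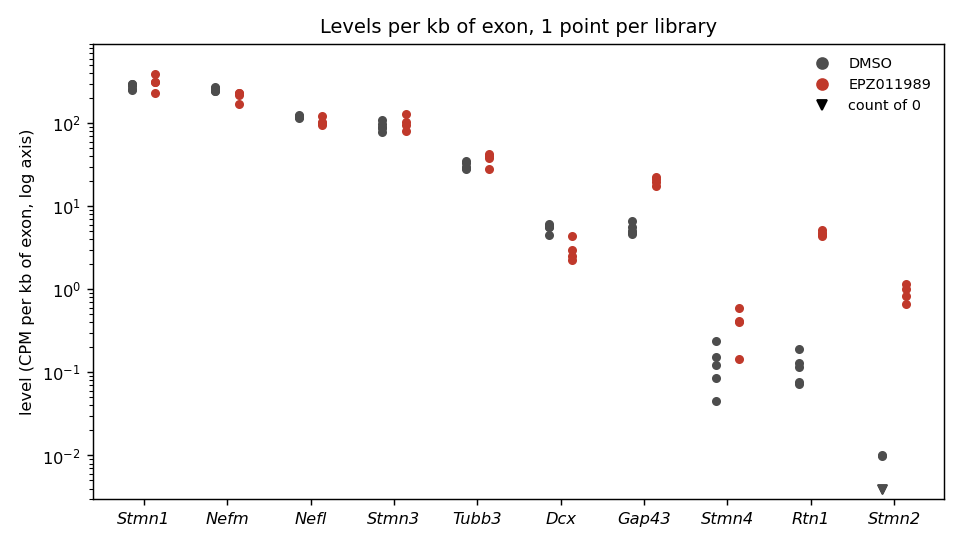
Level per kb of exon in each library on a log axis, with genes ordered by their DMSO mean; triangles at the lower edge mark libraries with a count of 0. Stmn1, Nefm, Nefl and Stmn3 lie near or above 100 CPM per kb in both groups, and Rtn1 and Stmn2 move across the most of the axis.

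The spread between EPZ011989 libraries had a common order in many members. Replicate 2 was the lowest of the 4 for 6 members (Gap43, Stmn1, Stmn3, Rtn1, Tubb3 and Nefm) and the highest for Nefl and Dcx. Replicate 4 was the highest for 6 (Stmn1, Stmn2, Stmn3, Stmn4, Tubb3 and Nefm) and the lowest for Nefl and Dcx. These 2 libraries also differed in a trend with exon length. The trend was measured in tested genes with a level of at least 5 CPM. In EPZ011989 replicate 2, 1152 such genes with under 2 kb of exon had a median of -0.29 (log2) against the mean of the EPZ011989 libraries. The median of 4736 such genes with over 5 kb was 0.16. In EPZ011989 replicate 4 the medians were 0.26 and -0.14. DMSO replicates 1 and 5 also differed in this way, with medians of -0.14 and 0.08 in replicate 1 and 0.15 and -0.07 in replicate 5. DMSO replicate 5 was the highest DMSO library for Gap43, Stmn2, Stmn3 and Tubb3, and the lowest for Stmn4, Dcx, Nefl and Nefm. Such spread was thus not particular to the EPZ011989 libraries. Of the members with over 5 kb of exon, Dcx went with the EPZ011989 trend (0.529 in replicate 2 and -0.422 in replicate 4). Nefm (-0.315 and 0.126) and Stmn2 (-0.118 and 0.329) went against it. The part of this trend in the members' values was tested only by removing it, an alternative chosen after seeing the data. With each library's length trend removed, Dcx was at -0.89, Gap43 at 1.94, Rtn1 at 5.36 and Stmn2 at 7.71, all called as before. Tubb3 (0.27) and Stmn4 (1.59) were then called higher, Nefm (-0.26) was not called, and Stmn1 (0.19) and Stmn3 (0.13) stayed below the threshold.

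**Figure D4:**
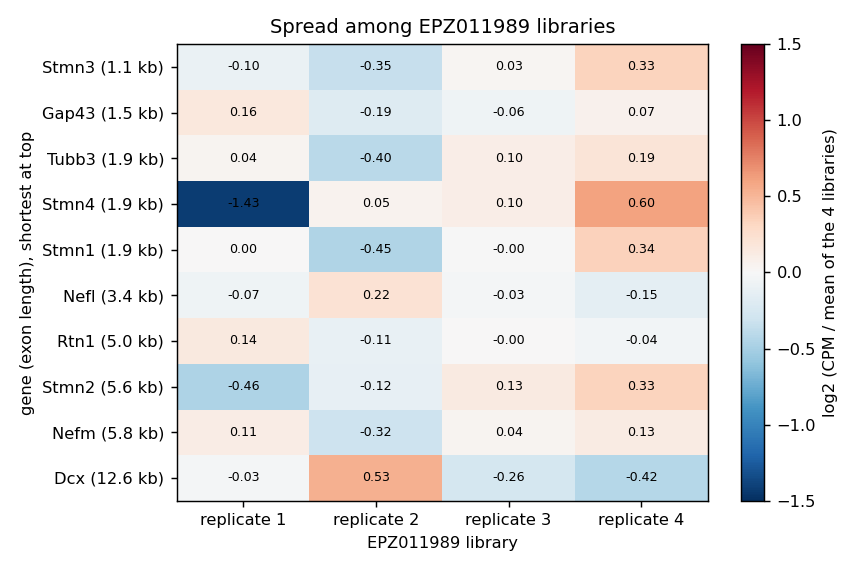
Log2 ratio of each gene's CPM to its mean over the 4 EPZ011989 libraries (colour and printed value), with genes ordered by exon length in kb from the shortest. In replicate 2 Stmn1, Stmn3 and Tubb3 lie between -0.45 and -0.35 while Dcx is at 0.53, and Stmn4 is lowest in replicate 1 at -1.43.

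Genes whose profile over the 9 libraries was most like that of a riser were found by the root mean square difference of log2(CPM + 0.1), each centred on its DMSO mean. For Gap43 they were Clec2l (0.10), Chn1 (0.12), which encodes the Rac regulator alpha-chimaerin, and Tspan9 (0.16). Chn1 went from 8.71 ± 0.87 to 31.6 ± 3.8 CPM, close to Gap43 in level as well. For Rtn1 they were Thy1 (0.38), Camk1g (0.42) and Adora1 (0.48), and for Stmn2 Adora1 (0.30) and Thy1 (0.40). At DMSO levels at or near 0 the added 0.1 CPM sets much of the log2 change, so these distances do not show a shared fold change. Each of these 3 was at or near 0 in DMSO and between 3.28 and 4.25 CPM with EPZ011989.

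Of the 6 nearest tested protein-coding neighbours of Gap43, Rtn1 and Stmn2, 1 was called higher and 0 lower, beside 16.2% and 7.96% of all tested genes, so the count sits at the background. Hey1, 102 kb from Stmn2, was at 58.9 ± 2.1 and 62.8 ± 3.1 CPM, and Zc2hc1a on its other side was not called either. Jkamp and Pcnxl4 flank Rtn1 at 110 and 127 kb and were not called. The gene called was Igsf11, 3221 kb from Gap43, which rose from 0.0229 ± 0.0313 to 1.11 ± 0.43 CPM, while Zbtb20 on the other side was not called. Beside Dcx, Capn6 at 28.4 kb fell from 6.43 ± 0.84 to 2.98 ± 0.24 CPM (adjusted p = 1.42e-04, edgeR), and Alg13 was not called. Dock5 and Stc1, which flank the neurofilament pair at 149 and 904 kb from Nefm, both rose, opposite to Nefm.

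The 8 related lists held 186 genes outside the members, of which 147 were tested, 51 called higher and 4 lower, where 16.2% and 7.96% of all tested genes were. Tubulins, the partners of Tubb3 and the stathmins, had 3 of 16 higher and 2 lower, near those shares, with a median log2 fold change of 0.10. Tuba4a fell from 252 ± 26 to 177 ± 33 CPM (adjusted p = 0.0131, edgeR). It shares 1379 exon bases with Stk16 on the opposite strand, so its level carries the same doubt as those of Nefl and Nefm. Tubb2a, Tubg2 and Tubb4b had log2 changes of 0.34, -0.40 and 0.37, with overlap between the groups for each. Of 37 microtubule-associated proteins and regulators, 11 were higher and 1 lower. The tubulin polymerisation protein gene Tppp rose from 1.34 ± 0.24 to 8.19 ± 1.44 CPM, the collapsin response genes Dpysl5 and Dpysl3 from 1.24 ± 0.37 to 11.2 ± 1.6 and from 0.755 ± 0.280 to 9.97 ± 2.00 CPM, and Mapt, which encodes tau, from 13.9 ± 1.0 to 26.8 ± 2.6 CPM. The median of that list was 0.10.

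Growth cone and neuronal membrane proteins, the list nearest to Gap43 in function, had 13 of 23 higher and 0 lower, with a median of 0.66. Higher calls made up 16.2% of all tested genes, and 28.3% of those under 1 CPM and 29.0% of those from 1 to 10 CPM in DMSO, the levels of the 3 genes named next. The axonal adhesion genes Cntn1, Chl1 and L1cam rose from 1.53 ± 0.42 to 11.5 ± 3.1, from 3.87 ± 0.25 to 14.5 ± 5.0 and from 1.16 ± 0.31 to 5.27 ± 1.16 CPM. Other intermediate filament genes had 5 of 11 higher, among them Nes (0.260 ± 0.156 to 4.80 ± 0.56 CPM), Vim (0.0920 ± 0.0853 to 2.10 ± 0.28 CPM) and Prph, while the nuclear lamin gene Lmnb1 rose slightly at 0.21 (log2).

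Rtn1 was alone among reticulons in being called, but it was chosen with its difference known. It was also far lower in DMSO, at 0.585 ± 0.244 CPM. Of all tested genes, 28.3% of those under 1 CPM in DMSO were called higher, 10.5% from 10 to 100 CPM and 3.92% at 100 CPM or more. Rtn2, Rtn3 and Rtn4 were at 94.9 ± 7.7, 531.6 ± 11 and 362 ± 13 CPM in DMSO and had log2 fold changes of 0.01, -0.10 and 0.05. Of the 13 tested genes in the list of reticulons and other shapers of this membrane, 3 were higher and 1 lower. The shares over all tested genes were 16.2% and 7.96%. Rtn4r, which encodes the receptor of the reticulon Nogo, rose from 0.0135 ± 0.0302 to 0.987 ± 0.296 CPM and its relative Rtn4rl2 from 1.13 ± 0.38 to 4.14 ± 1.28 CPM, while Reep6 fell from 91.7 ± 8.0 to 54.8 ± 12.5 CPM and Arl6ip1 rose by 0.29 (log2).

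Neuron identity markers had 8 of 18 tested members higher and 0 lower, where 16.2% and 7.96% of all tested genes were. Higher calls ran from 3.92% of tested genes at 100 CPM or more in DMSO to 29.0% at 1 to 10 CPM. Summed levels of the markers were 1204 to 1270 CPM in DMSO and 1271 to 1484 CPM with EPZ011989. The largest change in CPM within this sum was that of Uchl1, called higher, from 113 ± 7 to 226 ± 70 CPM. The sum therefore does not stand for the markers in general. Syn2, a synapsin gene, rose from 7.51 ± 0.70 to 21.5 ± 2.2 CPM, Nsg2 from 0.385 ± 0.166 to 6.51 ± 1.67 CPM, and Slc17a7, a vesicular glutamate transporter gene, from 0.0931 ± 0.1034 to 2.15 ± 0.39 CPM. Thy1, also a fibroblast marker, was at 0 in every DMSO library and with EPZ011989 at least 18.6-fold higher than the mean DMSO floor of 12 counts per library. The remaining 10 tested markers were not called. Of these, Elavl3 (243 ± 10 to 220 ± 11 CPM) and Ndrg4 (240 ± 10 to 213 ± 8 CPM) were lower with no overlap between the groups. Slc17a8 and Phox2a were at 0 in all 9 libraries. Neurogenic transcription factors had 6 of 15 higher and 0 lower, and the 4 with the smallest p, Scrt2, Neurod6, Neurod2 and Ebf1, stood at 2.62, 3.45, 0.98 and 2.99 (log2). Of 14 tested REST corepressors and regulators, 2 were higher, Rcor2 (0.59) and Ctdsp2 (0.31).

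**Figure D5:**
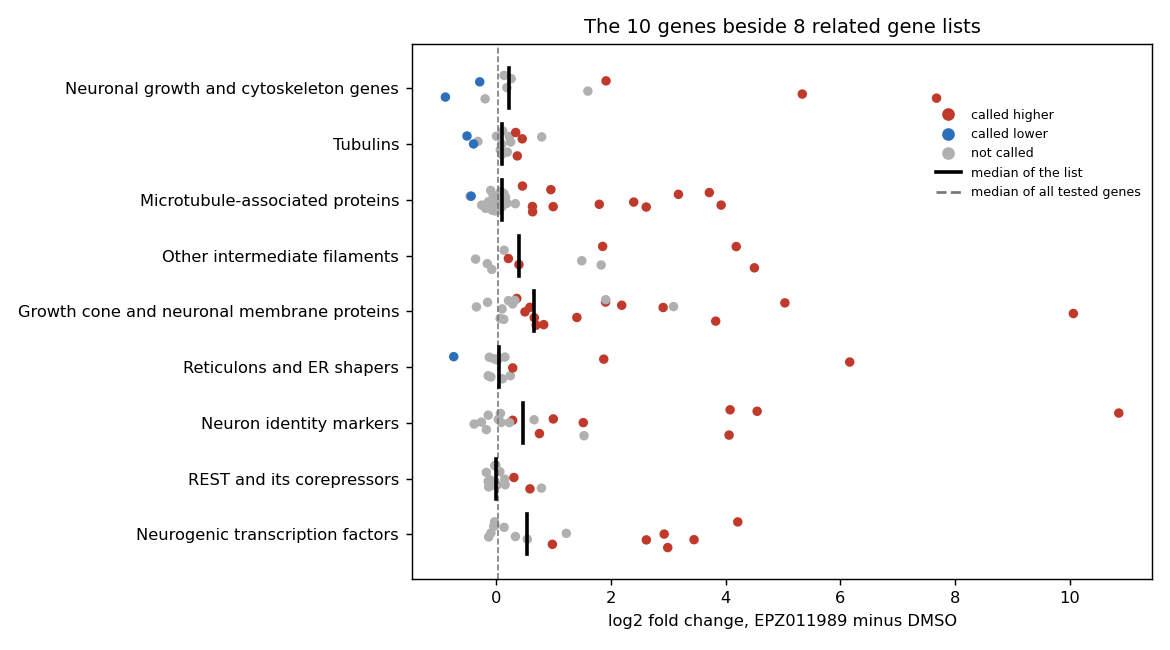
Log2 fold change, EPZ011989 minus DMSO (x axis), of each tested gene (points, with vertical scatter for visibility) in the 10-gene group and 8 related lists, with each list's median as a bar and that of all tested genes as a dashed line at 0.03. Tubulins and REST corepressors stay near the line, and growth cone proteins have a median of 0.66; fitted values of genes at or near 0 in DMSO, such as Thy1 and Stmn2, are no measure of size.

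Calls over the whole table differed with the DMSO level. Among tested genes under 1 CPM in DMSO 28.3% were called higher and 0.296% lower, and at 100 CPM or more 3.92% and 16.4%. A gene near 0 in DMSO is tested mainly if its EPZ011989 libraries lift it past the filter, so nearly only rises can be seen among such genes. The part of this in the shares under 1 CPM was not tested. Rtn4r, Vim, Slc17a7, Thy1, Igsf11, Camk1g and Adora1, each under 0.1 CPM in DMSO, passed the filter only through the group where they are high, as Stmn2 did. Of the 3 members under 1 CPM in DMSO, Rtn1 and Stmn2 were called higher, and of the 6 members at 50 CPM or more 0 were called higher and 2 lower. Markers of other cell types also moved, where 16.2% of all tested genes were called higher. Fibroblast and stellate cell markers had 5 of 7 tested members higher, with summed levels of 7.72 to 10.5 CPM in DMSO and 33.6 to 44.5 CPM with EPZ011989, while Dcn, Lum and Acta2 each had counts in 1 of 9 libraries. Glia and Schwann cell markers had 4 of 8 higher, with sums of 68.1 to 74.4 and 86.0 to 94.3 CPM, and Sox10 and Olig2 each had counts in 1 library. Leukocyte markers had 1 of 4 higher, with sums of 1.74 to 2.67 and 5.69 to 7.14 CPM, and Ptprc had counts in 1 library. Their part in the members' values was not tested.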

How the data were processed

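RNA-seq libraries of αTC1 cells (5 DMSO, 4 EPZ011989) were grouped by the treatment in the labels. The authors deposited whole-number gene counts. Per the submitters' processing notes, HISAT2, StringTie and DESeq2 were used with build mm10. Their roles, versions and any use of strand are not given in the sources used here. What 1 count stands for was not given. Counts of 1 were the most frequent above 0 (3970 values), and counts of 4 (3046) were more frequent than counts of 2 (2108) or 3 (2160). As an assumption that widens intervals, 4 counts were taken as 1 fragment and 12 counts (3 fragments) per library as the floor. Floors and intervals cover counting error only.

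Genes passing filterByExpr (14754) were scaled with TMM factors and tested with edgeR 4.0.16 (robust quasi-likelihood F test, treatment as the only term, R 4.3.3), with Benjamini-Hochberg adjustment over all tested genes. CPM values use TMM-scaled library sizes, and SEs were derived from the fitted change and its F statistic. Exon lengths and overlaps come from GENCODE M21 (GRCm38, the assembly of mm10), and promoters from RefSeq (GRCm38.p6). Simulated counts for 14754 genes included 100 with a 2-fold change, of which 88% were called, and 100 with a 4-fold change, of which 98% were called. False calls numbered 10.

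The members and lists were chosen with earlier results of these data known. Named genes were the members, up to 4 called genes of each related list by smallest p, the 3 most similar profiles of Gap43, Rtn1 and Stmn2, neighbours of called members, Rest and Ezh2. Nefh, Ina, Rtn2, Rtn3, Rtn4, Elavl3, Ndrg4, Uchl1 and markers at or near 0 were named after their values were seen. A few genes that this rule names are not reported here. Of 46 genes named from the related lists, similar profiles and neighbours, 11 have exons that overlap another gene. The largest overlaps were those of Tuba4a (1379 bases with Stk16) and Adora1 (1162 bases with Mybph), both on opposite strands. Alternatives were other scaling factors, filters, DESeq2 1.42.0, limma-voom (limma 3.58.1), counts divided by 4, a replicate block and leaving libraries out. Removal of the length trend was chosen after seeing the data.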

Additional observations from a re-analysis of the deposited data

How the results depend on the processing

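Gap43, Rtn1 and Stmn2 were called higher and Dcx lower in all 20 alternative fits, and Stmn3 was called in none. Stmn3 reversed without EPZ011989 replicate 4 and ranged from -0.011 to 0.229 with 1 library left out. Of the members, 3 were called higher, or 5 with the length trend removed and 3 to 5 with 1 library left out, with 5 without EPZ011989 replicate 2. With DESeq2, upper-quartile factors or library size alone 4 were called higher, Stmn4 being added. The 2 called lower became 1 without a filter, with upper-quartile factors, library size alone, at least 1 CPM in 4 libraries, counts divided by 4 or the length trend removed, and 1 to 3 with 1 library left out. Nefm was the member lost in each, and the cause was not tested. With DESeq2 3 were called lower, Nefl being added. In the related lists, 51 higher calls became 45 to 63 with 1 library left out, and 4 lower calls became 7 with DESeq2 or the length trend removed and 2 to 10 with 1 library left out (10 without EPZ011989 replicate 2, 2 without DMSO replicate 2 or EPZ011989 replicate 3). Over all genes, 2388 higher calls ranged from 1861 to 2939 and 1174 lower calls from 781 to 2377 with 1 library left out, and upper-quartile factors gave 776 lower. Of 6 neighbours of the 3 risers, 1 was higher also when genes of any type were allowed. The CpG ratio of the printed inner Rtn1 start was 1.16 over the 250 bases before it.

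Same-numbered libraries did not deviate together (r = 0.015, -0.099, -0.044 and 0.030 for numbers 1 to 4). Such correlations cannot tell whether same-numbered libraries were handled together, so pairing stays unknown. With the replicate block over 8 libraries, 1525 genes were higher and 527 lower over all genes, 3 and 1 among the members and 38 and 2 in the related lists, against 2080 and 1032, 3 and 1, and 45 and 4 for the same 8 libraries without it, the fit that also leaves out DMSO replicate 5 and is counted once. Depth limits Stmn2 and Stmn4 most, with 8 and 84 counts over the 5 DMSO libraries.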
